A study of Mus musculus with 4 samples.

Results

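The cytosolic ribosomal protein genes were taken as the autosomal protein-coding genes named Rpl (large subunit) or Rps (small subunit), a number and at most 1 letter. The stalk genes Rplp0 to Rplp2 (large subunit) and Rpsa (small subunit) were added. The rule found 76 genes, 46 of the large and 30 of the small subunit, of 20722 autosomal protein-coding genes in the GENCODE M21 annotation. It used names only and no measured value. Their chromatin was measured by ATAC-seq, in which the Tn5 transposase cuts open DNA, in 4 libraries of microglia, which are brain-resident macrophages. The microglia were sorted by flow cytometry from untreated C57BL/6 mice aged 3 months. Replicates 1 and 2 were wild type (WT), and replicates 1 and 2 of the other group lacked the transcription factor IRF8 (IRF8KO). The labels do not say whether the knockout is limited to a cell type, or whether replicates came from separate mice. The p-values therefore refer only to the spread between these libraries, which the fit pooled across promoters.

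Each cytosolic ribosome carries a single copy of most of these proteins, bound to ribosomal RNA, and growing cells transcribe the genes at a high and balanced rate. Mammalian ribosomal protein genes are short, often host small nucleolar RNAs (snoRNAs, guides of RNA modification) in their introns, and start transcription at a C within a run of pyrimidines, the TOP motif, through which mTOR signalling controls translation of their messages. IRF8 is a factor of the myeloid lineage that binds DNA with the ETS factor PU.1 at composite ETS-IRF elements or at interferon-response elements (ISRE).

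Promoter sequences are shown for the most and the least accessible members, for the only member called different between genotypes, and for 4 members named as paralogs, of which 3 were closed and 1 was open. Each sequence runs from 100 bases before to 20 bases from the RefSeq start, 5′ to 3′ on the gene's own strand, and comes from RefSeq on build GRCm38.p6. Capitals mark the longest pyrimidine run that reaches within 5 bases of the start, where it has at least 5 bases, and matches on either strand to the ETS motif (CCGGAAG) or the YY1 motif (AANATGGC). Rpl15 (chr14:18270967-18271086, minus strand) and Rpl37 (chr15:5116513-5116632, plus strand) had the highest promoter levels, Rpl4 (chr9:64173287-64173406, plus strand) the lowest, and Rpl38 (chr11:114668480-114668599, plus strand) was called lower in IRF8KO. Rps27l (chr9:66945986-66946105, plus strand) was open, whereas Rpl10l (chr12:66284382-66284501, minus strand), Rpl39l (chr16:10170128-10170247, plus strand) and Rpl3l (chr17:24727726-24727845, plus strand) had no deposited promoter summit.
Rpl15: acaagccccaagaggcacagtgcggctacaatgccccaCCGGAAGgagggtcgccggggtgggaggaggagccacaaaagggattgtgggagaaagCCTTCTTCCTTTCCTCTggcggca
Rpl37: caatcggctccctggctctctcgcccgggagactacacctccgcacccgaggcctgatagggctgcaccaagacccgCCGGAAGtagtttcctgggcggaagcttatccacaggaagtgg
Rpl4: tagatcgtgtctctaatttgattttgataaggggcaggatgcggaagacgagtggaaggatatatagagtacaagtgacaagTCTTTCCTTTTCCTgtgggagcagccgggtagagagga
Rpl38: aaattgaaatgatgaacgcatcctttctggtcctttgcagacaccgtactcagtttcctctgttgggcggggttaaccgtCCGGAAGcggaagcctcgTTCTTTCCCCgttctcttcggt
Rps27l: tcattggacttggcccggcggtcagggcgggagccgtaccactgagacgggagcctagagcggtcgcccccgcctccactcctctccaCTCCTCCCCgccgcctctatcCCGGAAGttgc
Rpl10l: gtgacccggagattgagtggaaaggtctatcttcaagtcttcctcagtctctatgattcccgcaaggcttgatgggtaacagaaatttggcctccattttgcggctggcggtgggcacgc
Rpl39l: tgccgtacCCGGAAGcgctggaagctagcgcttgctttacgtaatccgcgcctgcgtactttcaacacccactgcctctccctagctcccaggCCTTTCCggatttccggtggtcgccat
Rpl3l: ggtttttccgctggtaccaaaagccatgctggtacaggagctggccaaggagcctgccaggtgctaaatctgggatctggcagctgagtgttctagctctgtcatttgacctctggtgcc

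The run covered the start base, a C, in Rpl15 and Rpl38. In Rpl4, Rps27l and Rpl39l the marked run ended before the start base, a G. Rpl37, Rpl15, Rpl38 and Rps27l each held an ETS match, and so did the closed Rpl39l. Neither Rpl10l nor Rpl3l held a marked run or match in the bases shown.

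Sequencing gave 46948938 and 48896408 tags for the WT replicates and 78793572 and 66224648 for the IRF8KO replicates, with tags of 50 bp in WT and 49 bp in IRF8KO, so depth and tag size followed genotype and cannot be told apart from it. The level of a promoter is the pileup of the highest deposited summit within 500 bp of a protein-coding transcript start, per 1000000 tags of its library. This is a height at 1 position and does not depend on gene length. Over 12135 promoters with a summit in all 4 libraries, the median level was 2.34 and 2.05 in WT and 1.38 and 2.04 in IRF8KO replicates 1 and 2. IRF8KO replicate 1 thus stood apart from the other libraries, and values centred on each library's median promoter are given beside those scaled to tag number for the comparisons of genotypes. The promoter of Irf8 measured 2.07 and 1.49 in WT replicates and 0.863 and 1.36 in IRF8KO replicates, which does not check the labels, since the deleted part of the gene is not given in the sources used here. All 11 microglia markers had a strict promoter peak (a −log10 q of 2 or more) in all 4 libraries, and none of 4 B or T cell markers had one in any. Of 5 border macrophage markers 2 had one in each WT and 3 in each IRF8KO library (Cd163 in none), with summed levels of 0.831 and 0.675 in WT and 2.32 and 3.32 in IRF8KO. Of 4 oligodendrocyte markers 2 and 3 had one in WT and 1 and 2 in IRF8KO, with summed levels of 1.68 and 1.33 against 0.279 and 0.770. Of 4 astrocyte markers 3 and 2 had one in WT and 1 and 1 in IRF8KO. Of 3 endothelial markers 2 had one in every library. Of 4 neutrophil markers 1 and 0 had one in WT and 1 and 1 in IRF8KO. Of 3 neuron markers 0 and 1 had one in WT and 1 and 0 in IRF8KO. The part of such cells in the differences below was not tested.

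Promoters of ribosomal protein genes were open throughout. A strict promoter peak was present in all 4 libraries for 73 of the 76 members (96.1%), against 55.5% of all autosomal protein-coding genes. Over these members and all 4 libraries, the lowest −log10 q of a highest summit was 13.99, the lowest pileup 23 and the lowest fold enrichment over local background 5.86, each as the authors' peak caller gave it and not all at 1 summit. The remaining 3 members, Rpl10l, Rpl39l and Rpl3l, had no deposited summit within 500 bp of a start in any library, as did 27.5% of all genes. Rpl10l and Rpl39l are paralogs of X-linked genes and are known from the male germ line, and Rpl3l is a paralog of Rpl3 known from heart and skeletal muscle. Peak calling kept nothing below a pileup of 6 to 8 in a library, so the data place these promoters below that height and do not show zero accessibility.

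The X-linked parents Rpl10 and Rpl39, outside the rule, had promoter levels of 3.28 and 2.56 in WT and 2.09 and 2.60 in IRF8KO, and of 2.49 and 2.07 in WT and 1.40 and 2.099 in IRF8KO. Rpl3, a core protein near the peptidyl transferase centre, measured 2.32 and 1.31 in WT and 1.22 and 1.72 in IRF8KO. All 3 parents were open in every library. Rps27l, a p53-responsive paralog of Rps27, was open, at 3.49 and 2.86 in WT and 2.12 and 2.05 in IRF8KO. Its parent Rps27 measured 3.54 and 2.84 in WT and 2.21 and 3.11 in IRF8KO, so the levels of the pair overlapped. The genotypes did not overlap for Rps27l as scaled to tag number and overlapped with libraries centred. Outside the rule, the paralogs Rpl22l1 (6.30 and 5.604 in WT, 3.62 and 6.25 in IRF8KO), Rpl36al and Rpl7l1 were open in every library as well.

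Among the 73 open members the mean level over the 4 libraries ran from 0.499 to 9.73, a 19.5-fold range. The median was 2.63, against 1.94 over all 12135 promoters, and 47 members (64.4%) lay above the median of all promoters. Only 9 members (12.3%) were among the top 10% of promoters. Ribosomal protein promoters were thus moderately and not exceptionally accessible by this measure. Small-subunit members had a median of 2.64 and large-subunit members one of 2.38.

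**Figure D1:**
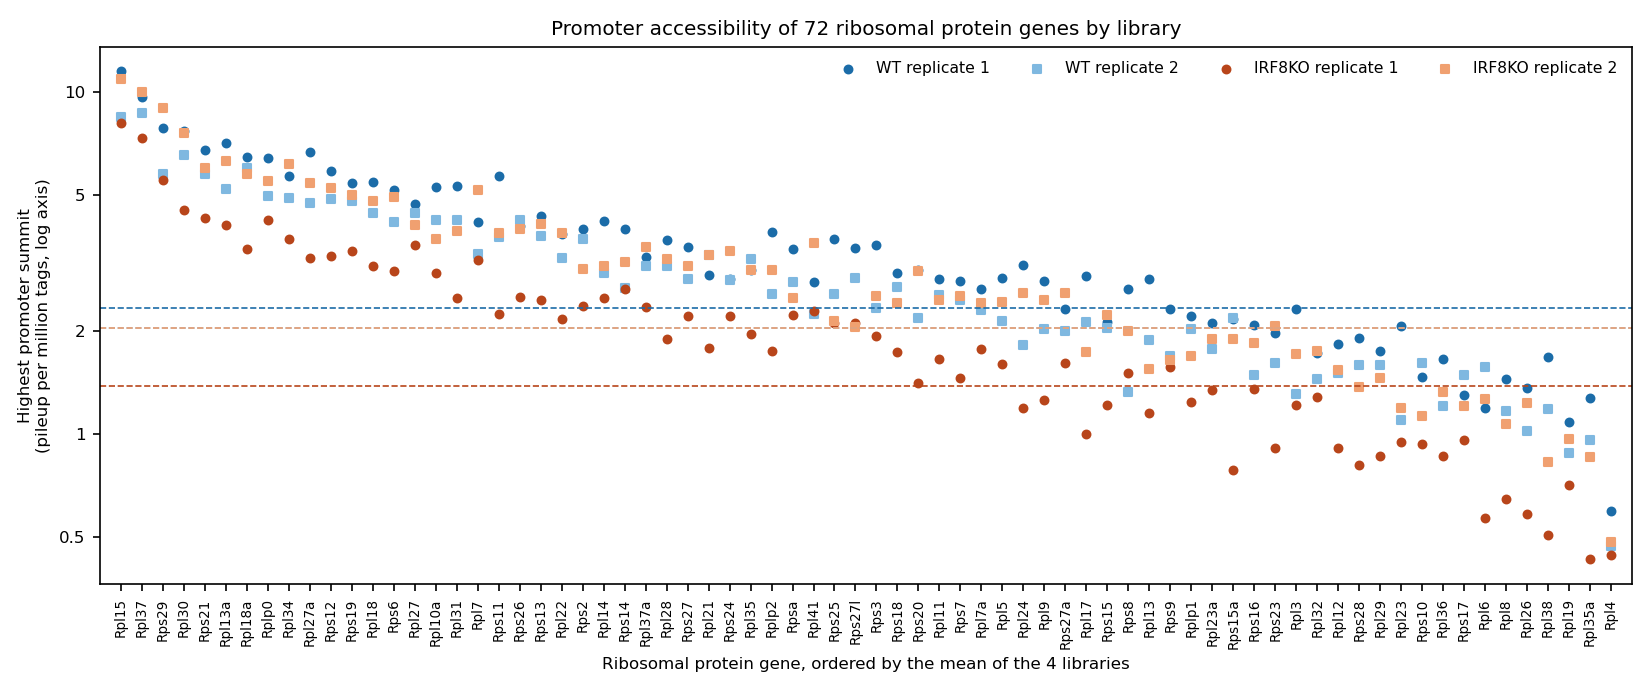
Each point is the highest promoter summit of 1 gene in 1 library, in pileup per 1000000 tags on a log axis, for 72 ribosomal protein genes with a summit, ordered by their mean. Dashed lines are the medians of all 12135 promoters in each library (2.34, 2.05, 1.38 and 2.04; the lines of WT replicate 2 and IRF8KO replicate 2 coincide). The order is similar in all libraries, and IRF8KO replicate 1 is the lowest point for most genes.

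The highest member was Rpl15, a large-subunit protein that shares a divergent promoter with Nkiras1, whose start lies 69 bp away. Its level was 11.5 and 8.43 in WT and 8.10 and 10.9 in IRF8KO, or 4.90, 4.12, 5.85 and 5.35 times the median promoter of the same library. The genotypes overlapped when scaled to tag number and did not overlap relative to the library median, where both IRF8KO libraries were higher. Rpl37, a zinc-binding large-subunit protein, measured 9.69 and 8.69 in WT and 7.32 and 10.03 in IRF8KO. Rps29, a small zinc-binding protein of the small subunit, measured 7.86 and 5.77 in WT and 5.55 and 8.97 in IRF8KO. In each of these genes IRF8KO replicate 1 was the lowest and the genotypes overlapped as scaled to tag number. Relative to the library medians both IRF8KO libraries were higher, at 5.29 and 4.92 against 4.14 and 4.25 for Rpl37, and at 4.01 and 4.40 against 3.35 and 2.82 for Rps29. Rpl30 gave 7.69 and 6.54 in WT and 4.51 and 7.61 in IRF8KO, with overlap on both scales.

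At the other end stood Rpl4, a large-subunit protein reaching into the exit tunnel. It hosts 5 snoRNAs, the most of any member, and shares its promoter with Zwilch. Its level was 0.596 and 0.470 in WT and 0.444 and 0.483 in IRF8KO. This was 0.230 to 0.321 of the library medians, with overlapping genotypes. Rpl35a, which is mutated in some Diamond-Blackfan anaemia, measured 1.28 and 0.961 in WT and 0.432 and 0.861 in IRF8KO. Rpl19 measured 1.09 and 0.879 in WT and 0.711 and 0.966 in IRF8KO. Both IRF8KO values of Rpl35a lay below both WT values, and those of Rpl19 overlapped them. Relative to the library medians Rpl19 was higher in both IRF8KO libraries, at 0.514 and 0.474 against 0.464 and 0.430, while Rpl35a was still lower in both. Rpl26, a regulator of p53 translation, measured 1.36 and 1.02 in WT and 0.584 and 1.24 in IRF8KO, and overlapped on both scales. Rpl38 is described below.

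The acidic stalk recruits elongation factors to the ribosome. Rplp0, its base, measured 6.41 and 4.97 in WT and 4.21 and 5.50 in IRF8KO. Rplp1 measured 2.22 and 2.02 in WT and 1.24 and 1.69 in IRF8KO, and its dimer partner Rplp2 measured 3.90 and 2.58 in WT and 1.75 and 3.02 in IRF8KO. Rplp0 was above both partners in every library, and only Rplp1 separated the genotypes, on both scales. With libraries centred the log2 differences were 0.15 for Rplp0, -0.16 for Rplp1 and -0.08 for Rplp2. Rpsa, a small-subunit protein also known as the laminin receptor precursor, measured 3.47 and 2.78 in WT and 2.23 and 2.51 in IRF8KO, without overlap as scaled to tag number and with overlap once libraries were centred.

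The order of members was much alike between libraries, while close neighbours in it could not be told apart. Spearman's rho over the 73 members was 0.941 to 0.954 between pairs of libraries, against 0.945 to 0.981 over all promoters. These correlations are across genes, which are not independent replicates and share library, depth and base composition. Of the 72 pairs of neighbours in the order, 3 kept the same order in all 4 libraries. Rpl15 was the highest member in 3 libraries, and Rpl4 the lowest in 3.

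Member promoters shared several features that the names do not fix. Genes were short, with a median length of 3399.5 bp against 17595.5 bp over all genes, and 27 of 76 (35.5%) hosted a total of 54 annotated snoRNAs, against 1.16% of all genes. None of 78 mitochondrial ribosomal protein genes hosted one. The level of snoRNA hosts (median 2.41) was close to that of the other open members (2.69). A divergent neighbour within 1 kb was found for 14 members (18.4%), against 14.1% of all genes and 38.5% of mitochondrial ribosomal protein genes. The mean summit position lay within 100 bp of the nearest annotated start for 59 of 73 members (80.8%), against 62.8% of all promoters. This share depends on how many starts a gene has. Signed offsets were averaged, so scattered summits can count as near, as in Rpl19 (266 and -63 bp in WT, -72 and -72 bp in IRF8KO). Peaks were no wider than elsewhere, at a median of 538.5 bp against 539.25 bp.

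A RefSeq promoter of 300 bases was matched for 54 members, of which 51 were open, and was compared with 8847 open promoters in all. The RefSeq start lay from 0 bp (as in Rplp0) to 493 bp (Rpl35) from the annotated start nearest the summits. Sequence features of some members can thus belong to another start than that nearest the summits. Motifs were searched on both strands, each as a fixed string of letters, ETS and YY1 as given above. Those for NRF1, ETS-IRF and ISRE had 10 letters each and are given by name only. The one for ISRE was a direct repeat of the IRF core with a short spacer of any bases, and the one for ETS-IRF an ETS core and an IRF core with the same spacer. A pyrimidine run of at least 8 bases that reached within 5 bases of the start, as in Rpl15, Rpl4 and Rpl38 above, was present in 18 members (35.3%), against 9.25% of all promoters and 10.4% of mitochondrial ribosomal protein promoters. The run covered the start base itself, as in Rpl15 and Rpl38, in 14 members (27.5%), against 3.73% and 1.49%. The start base was C in 19 members (37.3%), against 14.4%. The longest run, of 21 bases, was that of Rpl7a. The run therefore set the cytosolic genes apart by count from both comparison sets, without a test.

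The ETS motif was found in 21 members (41.2%), against 20.03% of all promoters, and the YY1 motif in 9 (17.6%), against 9.28%. No member held both, against 2.16% of all promoters and 11.9% of mitochondrial ribosomal protein promoters. The letters TATAA were found in 12 members (23.5%, against 11.3%), and the SP1 motif, GGGCGG, in 30 (58.8%, against 69.0%). The E-box CACGTG was found in 5 (9.80%, against 10.8%) and NRF1 in 4 (7.84%, against 11.7%). In 1 member an ETS match overlapped another motif. For the elements linked to IRF8, ETS-IRF was found in 1 member, Rpl37 (1.96%, against 2.22%), and the PU.1 motif, GAGGAAGT, in 2 (3.92%, against 3.33%). ISRE was found in 7 members (13.7%, against 3.04%), namely Rpl27a, Rps19, Rps7, Rpl5, Rps23, Rpl38 and Rpl4, and in 2 of the 7 the match overlapped the pyrimidine run. A match is a run of letters and not a shown binding site.

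**Figure D2:**
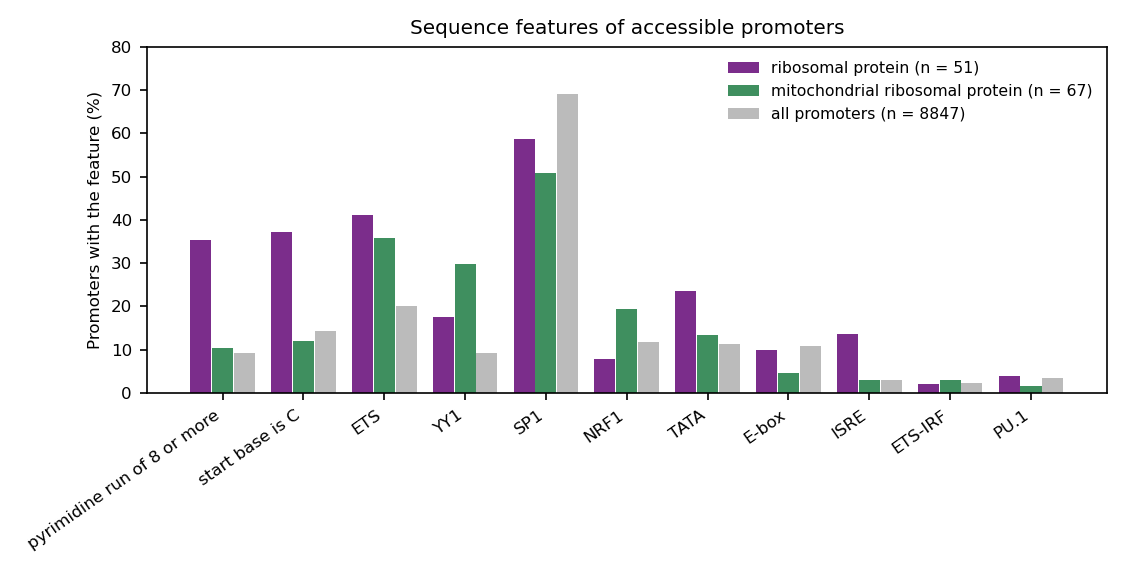
Bars give the percentage of open promoters that hold each feature, for 51 ribosomal protein, 67 mitochondrial ribosomal protein and 8847 promoters in all. Pyrimidine runs of 8 or more bases reaching within 5 bases of the start (35.3%) and a C at the start (37.3%) are more frequent in the cytosolic genes than in either other set, while ETS matches are frequent in both ribosomal protein sets (41.2% and 35.8%).

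Levels were compared by motif among the 51 members. The median level was 2.75 with and 2.44 without an ETS match, and 2.81 with and 2.60 without a long pyrimidine run. It was lower with a TATA match (1.83 in 12 members) than without (2.81 in 39). It was 4.24 in the 2 members with a PU.1 match and 2.63 in the 49 without, and 2.26 in the 7 with an ISRE match and 2.78 in the 44 without. The only member with an ETS-IRF match was Rpl37. These medians are descriptions of overlapping sets of few genes.

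The comparison of genotypes asked whether chromatin at these genes changes without IRF8. Ribosomal protein promoters moved with the bulk of promoters. The median log2 difference, IRF8KO minus WT, was -0.36 over the 73 members and -0.34 over all 12135 promoters, and 70 members were below 0. Centring the libraries shifted the median of all promoters to 0.04 and that of members to 0.02. Within each library the median member promoter was 1.29, 1.26, 1.29 and 1.27 times the median of all promoters in WT replicates 1 and 2 and IRF8KO replicates 1 and 2. The excess of ribosomal protein promoters over the typical promoter was thus nearly the same in every library.

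With limma over all 12135 promoters and Benjamini-Hochberg adjustment, 1 of 73 members was called lower in IRF8KO at an adjusted p under 0.05, against 4.34% of all promoters, and 0 were called higher, against 0.865%. At an unadjusted limma p under 0.05 there were 6 members, against 15.4% of all promoters. Both IRF8KO values lay below both WT values in 24 members (32.9%), against 41.3%, and above in 0, against 3.71%. With libraries centred, limma called 0 members lower (2.32% of all promoters) and 0 higher (2.52%), with 6 at an unadjusted p under 0.05 (19.6% of all). On that scale 11 members were lower without overlap (20.2% of all promoters) and 18 higher (30.2%). Calls and separations were no more frequent among members than among promoters at large on either scale.

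Leaving out 1 library moved the common shift. Without IRF8KO replicate 2 the median of members was -0.67 and 25 were called lower (34.3% of all promoters were), and without IRF8KO replicate 1 the median was -0.05 and 0 were called (3.62% of all promoters were called lower). The fit to all 4 libraries pooled the spread over promoters, which share each library's shift, and so had 24270 degrees of freedom. It gave every promoter the same standard error, 0.36 on the log2 scale, so its calls ranked promoters by size of difference. In that fit a difference of -1.12 (Rpl38) was called and one of -0.91 (Rpl17) was not, so smaller differences at single members could not be called. On simulated data limma recovered 20% of promoters changed by 1 log2 unit and 67% of those changed by 2. The simulated spread was that left after each library's shift was removed, independent between promoters. These rates therefore do not describe the fit to the real libraries scaled to tag number. Centred on the library medians, 69 members (94.5%) lay within 0.5 log2 units of 0, against 84.4% of all promoters, and the standard deviation of the differences was 0.23 over members and 0.46 over all.

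**Figure D3:**
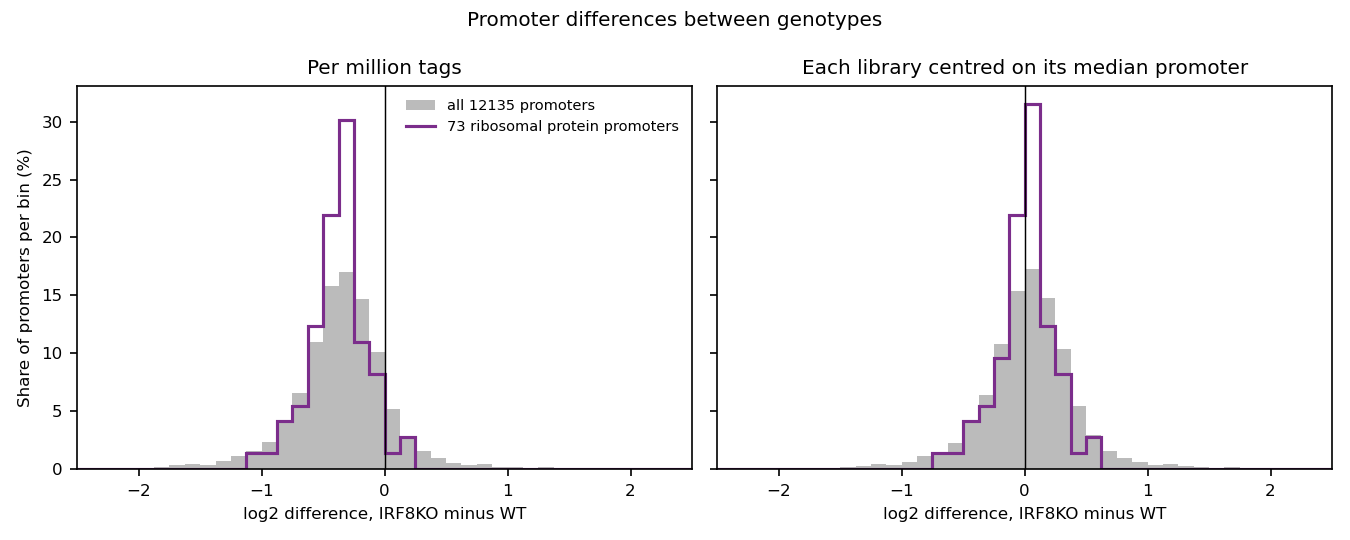
Histograms of the log2 difference in promoter level, IRF8KO minus WT, as the percentage of promoters in each bin, for all 12135 promoters (grey) and the 73 ribosomal protein promoters (purple line), scaled to tag number and with each library centred. Both distributions peak at the same place on each scale (medians -0.36 and -0.34, then 0.02 and 0.04), and that of the members is narrower.

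The member called lower was Rpl38, a large-subunit protein known for its role in translation of homeobox messages. Its level was 1.68 and 1.19 in WT and 0.508 and 0.831 in IRF8KO, without overlap. The log2 difference was -1.12 (SE 0.36, limma, Benjamini-Hochberg adjusted p = 0.0381). With libraries centred it was -0.74 (SE 0.17, limma adjusted p = 0.0718), and no longer passed the threshold. The call was also lost when any of WT replicate 1, WT replicate 2 or IRF8KO replicate 1 was left out (limma adjusted p of 0.9999, 0.311 and 0.177).

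The highest summit of Rpl38 lay downstream of its start in 3 of the 4 libraries. In WT the highest summit was 477 and 469 bp downstream of the annotated start at chr11:114668626, within the gene body, with pileups of 79 and 58. In IRF8KO replicate 2 it was at 476 bp with a pileup of 55, and in IRF8KO replicate 1 a summit at 458 bp had a pileup of 40, equal to that near the start, and one at 558 bp, beyond the 500 bp limit, had a pileup of 41. The value used for IRF8KO replicate 1, a pileup of 40, was thus that of both tied summits. The summit nearest the start, at -27, -47, -45 and -64 bp, measured 0.532 and 0.593 in WT and 0.508 and 0.362 in IRF8KO. Relative to the library medians these were 0.227 and 0.290 in WT and 0.367 and 0.178 in IRF8KO, which overlap. With the highest summit within 200 bp of any annotated start, the log2 difference was -0.18 (limma adjusted p = 0.803). The highest summit sat more than 100 bp apart between libraries in 13 of 73 members (17.8%), against 27.6% of all promoters. Among these, the values of the genotypes came from different summits in Rpl4, Rps15a, Rps27a and Rpsa.

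The next members by p did not pass the threshold. Rpl17 measured 2.90 and 2.13 in WT and 1.003 and 1.74 in IRF8KO, a log2 difference of -0.91 (limma adjusted p = 0.141). Rpl35a, with the values above, gave -0.86 (limma adjusted p = 0.176), and Rps15a gave -0.83 (limma adjusted p = 0.2). In these 3 genes both IRF8KO values were below both WT values as scaled to tag number. With libraries centred the differences were -0.53, -0.48 and -0.45 (limma adjusted p of 0.166, 0.251 and 0.387), and Rps15a overlapped. Without IRF8KO replicate 1 the differences were -0.52 (Rpl17), -0.36 (Rpl35a) and -0.20 (Rps15a), and without IRF8KO replicate 2 they were -1.31, -1.36 and -1.47 and passed the threshold, as did 34.3% of all promoters. The largest positive difference was that of Rpl41, which encodes a very short basic protein, at 2.79 and 2.25 in WT and 2.28 and 3.62 in IRF8KO. Its log2 difference was 0.20 (limma adjusted p = 0.776) and 0.58 with libraries centred (limma adjusted p = 0.0967), and it was -0.13 without IRF8KO replicate 2.

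Beyond the promoters, the members' windows (gene body and 2 kb on each side) held 224 distinct regions of merged peaks, 131 of them strict in all 4 libraries. Promoters accounted for 124 regions at 73 genes, introns for 35, exons for 9, upstream flanks for 11 and downstream flanks for 46, with a region counted in each window it lies in. No region beyond the promoter was found for 26 members, and Rps14, a small-subunit protein with long annotated transcripts, had the most, with 12.

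Regions present in only 1 genotype were few. With a strict peak in both WT and no deposited peak in either IRF8KO library there were 3 of 224 (1.34%, against 2.48% of 218099 regions in windows of all genes), at Rpl21, Rpl27a and Rps14. The converse held for 6 (2.68%, against 1.64%), at Rpl13, Rpl9, Rps27a, Rps6 and, in 2 regions, Rps14. The highest of these was the IRF8KO-specific region upstream of Rps27a (chr11:29549857-29550002), whose product is a ubiquitin fused to a ribosomal protein, at 0.508 and 0.604. The next was the WT-specific region downstream of Rpl27a (chr7:109523095-109523230), at 0.575 and 0.491, followed by the IRF8KO-specific region upstream of Rpl13 (chr8:123100255-123100693), at 0.419 and 0.559. The others measured 0.184 to 0.378. With a −log10 q of at least 5 required, 0 WT-specific and 2 IRF8KO-specific regions remained in the count (1.26% and 0.808% of regions of all genes).

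Of the members' non-promoter regions 47 had a summit in all 4 libraries and were tested with limma over 57443 such regions of the genome. The calls were 2 lower in IRF8KO (9.35% of all regions) and 2 higher (3.79%), and with libraries centred 2 lower (9.77%) and 7 higher (11.2%). The median log2 difference was -0.34, against -0.31 over all regions.

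The region with the smallest p was an intron of the long transcripts of Rps14 (chr18:60762889-60763239), with its centre at -11532 bp from the nearest annotated start. Its level was 0.383 and 0.164 in WT and 1.32 and 1.81 in IRF8KO, far apart and without overlap. The value of WT replicate 2 lay near the lowest level deposited for that library, 0.123, so the size of the difference is uncertain. The log2 difference was 2.63 (SE 0.44, limma, Benjamini-Hochberg adjusted p = 2.77e-07), and it was called higher under every alternative run for it, with values from 2.01 to 3.24. The promoter of Rps14 itself measured 3.98 and 2.68 in WT and 2.65 and 3.19 in IRF8KO, which overlap (limma adjusted p = 0.811). A second intron region of the gene (chr18:60751981-60752340) measured 0.490 and 0.409 in WT and 0.698 and 1.13 in IRF8KO and was called with libraries centred (1.32, limma adjusted p = 0.0038).

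Downstream of the closed Rpl3l, a region (chr17:24737409-24737862) measured 0.490 and 0.450 in WT and 1.21 and 1.87 in IRF8KO. It was higher in both IRF8KO libraries, by 1.68 on the log2 scale (SE 0.44, limma adjusted p = 0.0026) and by 2.003 with libraries centred, and the call was lost without either WT replicate. It lies within Msrb1, a methionine sulfoxide reductase gene, 993 bp after that gene's start. The region past the end of Rpsa (chr9:120133443-120133850), over the non-coding gene Gm5922, measured 0.660 and 0.429 in WT and 0.190 and 0.181 in IRF8KO, lower by a log2 difference of -1.52 (SE 0.44, limma adjusted p = 0.00786). The region upstream of Rps15a (chr7:118117569-118117854) measured 1.70 and 1.37 in WT and 0.508 and 0.861 in IRF8KO, a log2 difference of -1.21 (SE 0.44, limma adjusted p = 0.0496). Groups did not overlap in either region. With libraries centred the differences were -1.19 at Rpsa and -0.88 at Rps15a (limma adjusted p of 0.0201 and 0.0251). The Rpsa call was lost without either WT replicate, and the Rps15a call without either WT replicate or IRF8KO replicate 1.

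**Figure D4:**
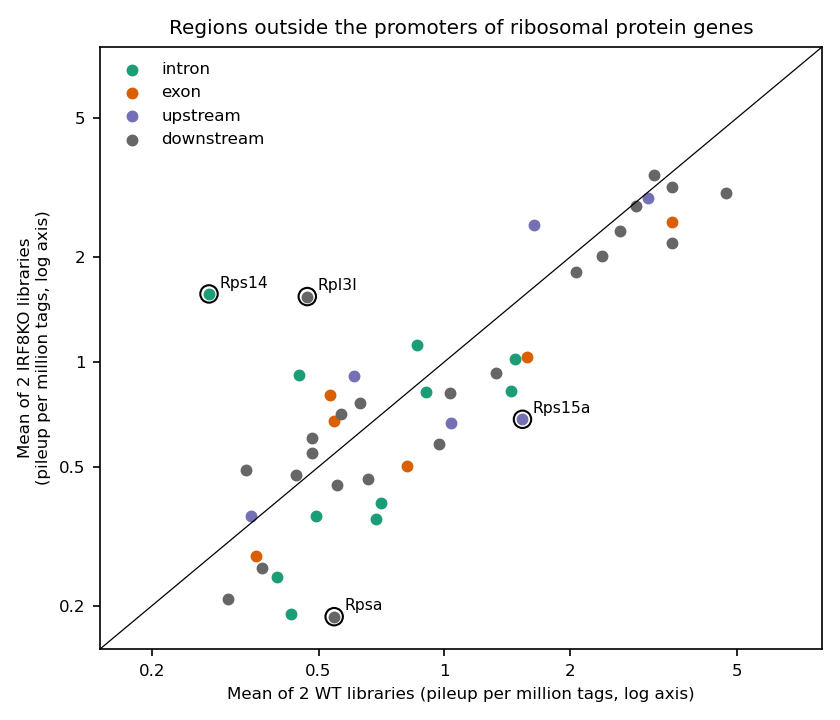
Each point is 1 of the 47 tested regions outside the promoters of ribosomal protein genes, with the mean of the 2 WT libraries against the mean of the 2 IRF8KO libraries, in pileup per 1000000 tags on log axes. Circled points are called, and the line marks equal values. The Rps14 intron and the region past Rpl3l lie above the line, the regions at Rps15a and Rpsa below it.

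Related gene sets were described at their promoters in the same way, without a test between sets. The 6 autosomal ribosomal proteins named otherwise (such as Fau, which encodes a fusion with a ubiquitin-like protein) had a median log2 difference of -0.45, 78 mitochondrial ribosomal protein genes one of -0.33, 37 translation factors -0.27 and 31 ribosome biogenesis genes -0.37. With limma, 0 genes were called in any of these lists in either direction, against the 4.34% lower and 0.865% higher of all promoters. Every gene of these lists had a strict promoter peak in all 4 libraries. With libraries centred the medians were -0.07, 0.05, 0.12 and 0.02, and 1 gene was called higher (2.52% of all promoters were) and 0 lower (2.32%). It was Eif4ebp1, a repressor of cap-dependent translation that mTOR inactivates. It measured 2.30 and 2.41 in WT and 2.58 and 4.45 in IRF8KO, without overlap, a centred log2 difference of 0.91 (limma adjusted p = 0.0386), against 0.52 (limma adjusted p = 0.494) as scaled to tag number.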

How the data were processed

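ATAC-seq peak lists of 2 WT and 2 IRF8KO microglia libraries were used. The authors ran MACS2 2.1.1.20160309 on each library without a control, per the file headers (p 0.01, shift -37, extension 73 bp, duplicates kept, summits called). Bowtie2, bcl2fastq, deepTools and mm10 come from the submitters' processing notes. The deposited pileup is a signal, the unscaled depth at a summit. The deposited fold enrichment is a ratio to the local background. The deposited p and q are −log10 values.

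Pileups were scaled to 1000000 tags by each header's tag number, because depth differed with genotype. Promoter levels (highest summit within 500 bp of a start, GENCODE M21 on the same GRCm38 build) were compared as log2 values with limma 3.58.1 (R 4.3.3) over 12135 promoters with a summit in all 4 libraries, Benjamini-Hochberg adjusted, called at 0.05. Requiring a summit in all 4 libraries leaves out promoters lost in either genotype, which the counts of peaks cover. An exact test of 2 against 2 libraries cannot go below 0.333. The fit was tested on simulated data that held no shift shared within a library. Regions are merged peaks of the 4 libraries. The members and all lists were chosen with earlier results of these data known. Named members were those called, the 5 highest and 5 lowest, those without a promoter summit, those with genotype-specific regions, the stalk genes, Rpsa, and paralogs with parents. Rpl17, Rps15a, Rpl35a and Rpl41 as extremes, other genes named for features, and the test of regions outside promoters were chosen after values were seen. Alternatives were other scalings, windows, filters, fits and left-out libraries. RefSeq promoters of 22 members were not used here, for want of a match, and the values of a few genes under the naming rule are not reported here.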

Additional observations from a re-analysis of the deposited data

How the results depend on the processing

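Between 68 and 73 members had strict promoter peaks in all 4 libraries, and 0 were called higher, in every alternative run. The single member called lower became 0 with libraries centred, quantile normalization, a pseudocount of 0.5, a 200 bp window, the 5′ end only, limma-trend or the replicate block, and 0 to 25 when 1 library was left out (0 with centring), where 0.742% to 34.3% of all promoters were called. The median of members was 0.0244 centred (with and without the block), -0.0448 with quantile normalization, -0.666 to -0.0491 with 1 library left out, and 0.0846, -0.0305, 0.0537 and -0.00416 when also centred and without WT 1, WT 2, IRF8KO 1 and IRF8KO 2. Members lower without overlap were 11 centred (20.2% of all promoters) and 24 to 71 with 1 library left out (42.0% to 88.4%). Members higher without overlap were 18 centred (30.2%), 12 with quantile normalization (23.9%), 1 in a 200 bp window (3.55%) and 0 to 14 with 1 library left out (4.08% to 25.2%). WT-specific regions were 0 at a −log10 q of 5, 0 in gene bodies only, 10 with 10 kb flanks (1.26%, 2.47% and 2.51% of regions of all genes) and 5 to 9 with 1 library left out (2.88% to 6.53%). IRF8KO-specific regions were 2, 3 and 16 under the same changes (0.808%, 1.60% and 1.685%) and 6 to 11 with 1 library left out (2.17% to 5.29%). Non-promoter regions called higher were 7 centred (11.2% of all regions) and 1 to 3 with 1 library left out (0.933% to 7.80%), and those called lower 0 to 9 (1.997% to 23.9%), and 1 with the block (5.59%). With 1 library left out, differences ran from -0.133 to 0.53 at Rpl41, -0.215 to 0.47 at Rpl7 and -0.280 to 0.41 at Rps29, negative without IRF8KO replicate 2 and, for Rpl7 (-0.031) and Rps29 (-0.156), without WT replicate 2. Causes were not tested.

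Replicate numbers did not pair the libraries (correlation of deviations 0.03 over 12135 promoters). Under the replicate block the median stayed at -0.36, and the Rpl38 and Rps15a region calls were lost. Centred fits with a library left out or with the block, and all alternatives of the region test, and the count of runs over the start base were added after seeing the data. Depth limits small differences at low promoters such as Rpl4.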
